A study of Rattus norvegicus with 8 samples.

Results

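Collagens and the other proteins of the extracellular matrix form the scaffold between cells, and transcripts of 52 such genes were measured in the sensory ganglia of the spine (dorsal root ganglia, DRG) 7 days after a spinal nerve was tied in Sprague Dawley rats, the Chung model of nerve injury, beside control ganglia. The genes were chosen by symbol: collagen chains, laminins, fibulins, thrombospondins and lysyl oxidases in the table, with a set of named proteoglycans and glycoproteins, and each was read from its brightest sequence identifier. They made up 52 of 10722 named genes with a test. Sensory neurons have their cell bodies in a DRG, wrapped by satellite glia, among Schwann cells, connective tissue, vessels and immune cells. The ligation group held 4 samples from the side of a tied spinal nerve (ipsilateral, labelled as spinal nerve-ligated), and the control group held 4 samples that the labels call contralateral in their titles and sham-operated in their descriptions, so operation and side cannot be told apart. Each sample, labelled as a biological replicate, was pooled from 2 animals and hybridised on its own array against 1 common reference, a control pool. The labels used here give no age, sex, spinal level or nerve segment.

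Each value is the log2 ratio of an array's sample intensity to its reference intensity, and a log2 difference is the mean of the ligation arrays minus the mean of the control arrays. Intensities are on a relative scale printed with 2 decimals, and the medians of the sample channel were 0.21 to 0.22 on the ligation arrays and 0.17 to 0.20 on the control arrays. Precision is limited by the 4 arrays in each group, and the median standard error over all probes was 0.063. All 7 measured markers of sensory neurons fell, beside 35.9% of all named genes tested. They include the neurofilament gene Nefh, with a mean sample intensity of 6.32 in ligation and 15.5 in control. In RNA of a whole ganglion, fewer cells of a type and less RNA per cell cannot be told apart.

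Fibrillar collagens are secreted as procollagens, trimmed outside the cell and assembled into the fibres that give connective tissue its strength. Type IV collagen, laminins, nidogen and perlecan instead build the sheet-like basement membranes around vessels and around Schwann cells. In a peripheral ganglion the fibre-rich matrix is laid down mainly by fibroblasts of the capsule and endoneurium, whereas lecticans such as brevican, with tenascin R, are known from the matrix around neurons.

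Promoter sequence was available from RefSeq (GRCr8 build, 300 bases around the annotated start of transcription) for 36 of the 52 genes. The windows of 4 genes are shown because their transcripts carry the main results below: Col1a2 and Col5a2 as fibrillar collagens that rose, Col18a1 as a member with a large rise and Bcan as a member with a large fall. They lie at chr4:33518307-33518606 (Col1a2, plus strand), chr9:55090102-55090401 (Col5a2, minus strand), chr20:11473395-11473694 (Col18a1, plus strand) and chr2:175765265-175765564 (Bcan, minus strand). Capitals mark matches on either strand to TATAAA (the TATA box), CCAAT (the CCAAT box), GGGCGG (the GC box) or TGANTCA (the AP-1 motif), with 0 overlapping matches in these windows.
Col1a2: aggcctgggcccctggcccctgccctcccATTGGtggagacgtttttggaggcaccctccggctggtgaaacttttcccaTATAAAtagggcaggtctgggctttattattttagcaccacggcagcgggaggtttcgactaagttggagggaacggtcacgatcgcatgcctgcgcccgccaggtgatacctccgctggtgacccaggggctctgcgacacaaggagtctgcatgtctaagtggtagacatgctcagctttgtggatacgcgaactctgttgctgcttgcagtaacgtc
Col5a2: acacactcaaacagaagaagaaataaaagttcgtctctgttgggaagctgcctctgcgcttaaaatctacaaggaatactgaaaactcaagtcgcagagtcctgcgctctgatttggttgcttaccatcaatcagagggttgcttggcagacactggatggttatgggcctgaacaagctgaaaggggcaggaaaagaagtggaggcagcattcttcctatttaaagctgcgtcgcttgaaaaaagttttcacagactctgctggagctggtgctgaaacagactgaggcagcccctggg
Col18a1: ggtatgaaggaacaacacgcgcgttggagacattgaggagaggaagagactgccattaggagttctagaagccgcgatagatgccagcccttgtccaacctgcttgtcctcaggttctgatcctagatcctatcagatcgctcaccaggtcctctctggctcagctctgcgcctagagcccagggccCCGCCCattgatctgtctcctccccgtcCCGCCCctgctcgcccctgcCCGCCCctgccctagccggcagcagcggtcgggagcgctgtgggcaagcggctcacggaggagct
Bcan: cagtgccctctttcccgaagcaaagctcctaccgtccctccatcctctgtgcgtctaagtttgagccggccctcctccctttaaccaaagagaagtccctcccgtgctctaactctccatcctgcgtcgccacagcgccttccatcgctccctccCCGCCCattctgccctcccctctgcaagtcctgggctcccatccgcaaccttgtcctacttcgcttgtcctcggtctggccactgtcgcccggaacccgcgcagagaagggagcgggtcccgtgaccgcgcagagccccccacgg
The Col1a2 window held 1 TATAAA, and 1 CCAAT that reads as ATTGG on the printed strand. The Col18a1 window held 3 GC boxes, the Bcan window 1, and the Col5a2 window 0 matches to any of these motifs. Of 37 windows of the matrix genes, 8 held TATAAA, 14 CCAAT, 22 GGGCGG and 1 TGANTCA. Over all 33469 windows of the table, TATAAA was found in 14.2%, CCAAT in 37.5%, GGGCGG in 33.1% and TGANTCA in 7.33%. A match describes the letters only and is not evidence of binding.

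Ligation was compared with control to find which matrix genes were higher or lower in the ligated ganglia. Of the 52 genes, 36 rose and 6 fell past the test, and 10 did not pass (limma, Benjamini-Hochberg adjusted p under 0.05 over all probes). Rises were found in 69.2% of the matrix genes, beside 30.2% of all named genes tested. Falls were found in 11.5% of the matrix genes, beside 35.9% of all genes. At least a 2-fold rise was seen in 18 matrix genes (6.53% of all genes) and at least a 2-fold fall in 3 (4.69% of all genes). The 4 ligation arrays all lay above the 4 control arrays for 34 matrix genes, beside 28.7% of all genes. The median log2 difference was 0.67 over the matrix genes and -0.05 over all genes. Under quantile normalization between arrays, which gives all arrays the same spread of ratios, 6363 of 22379 probes passed in place of 13105. In that setting 21 matrix genes rose and 5 fell, beside 13.6% of all probes higher and 14.8% lower. Large rises were in Col18a1 (5.92-fold), Thbs4 (4.55-fold), Col6a3 (4.45-fold) and Vcan (4.02-fold), and large falls in Bcan (3.79-fold), Col10a1 (3.40-fold) and Tnr (2.21-fold). Quantile normalization changed their sizes and order: the log2 difference was then 1.94 for Thbs4, 1.75 for Col18a1, 1.66 for Vcan and 1.48 for Col6a3. It was -1.48 for Col10a1, -1.31 for Bcan and -1.09 for Tnr, and all 7 of these genes passed in that setting.

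**Figure D1:**
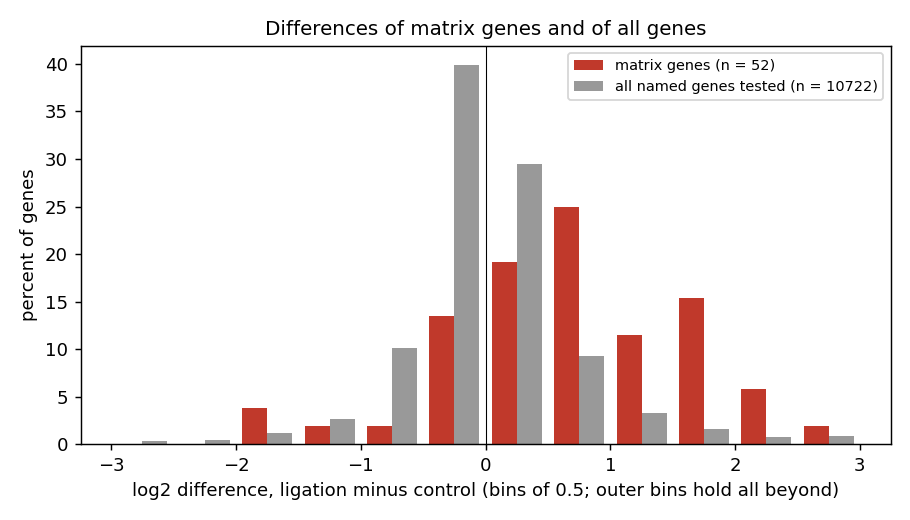
Percent of genes in each bin of the log2 difference, ligation minus control (x axis, bins of 0.5), for the 52 matrix genes and for the 10722 named genes tested. Matrix genes are centred at a median of 0.67 and all genes at -0.05, while 3.85% of the matrix genes lie between -2.0 and -1.5.

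**Figure D2:**
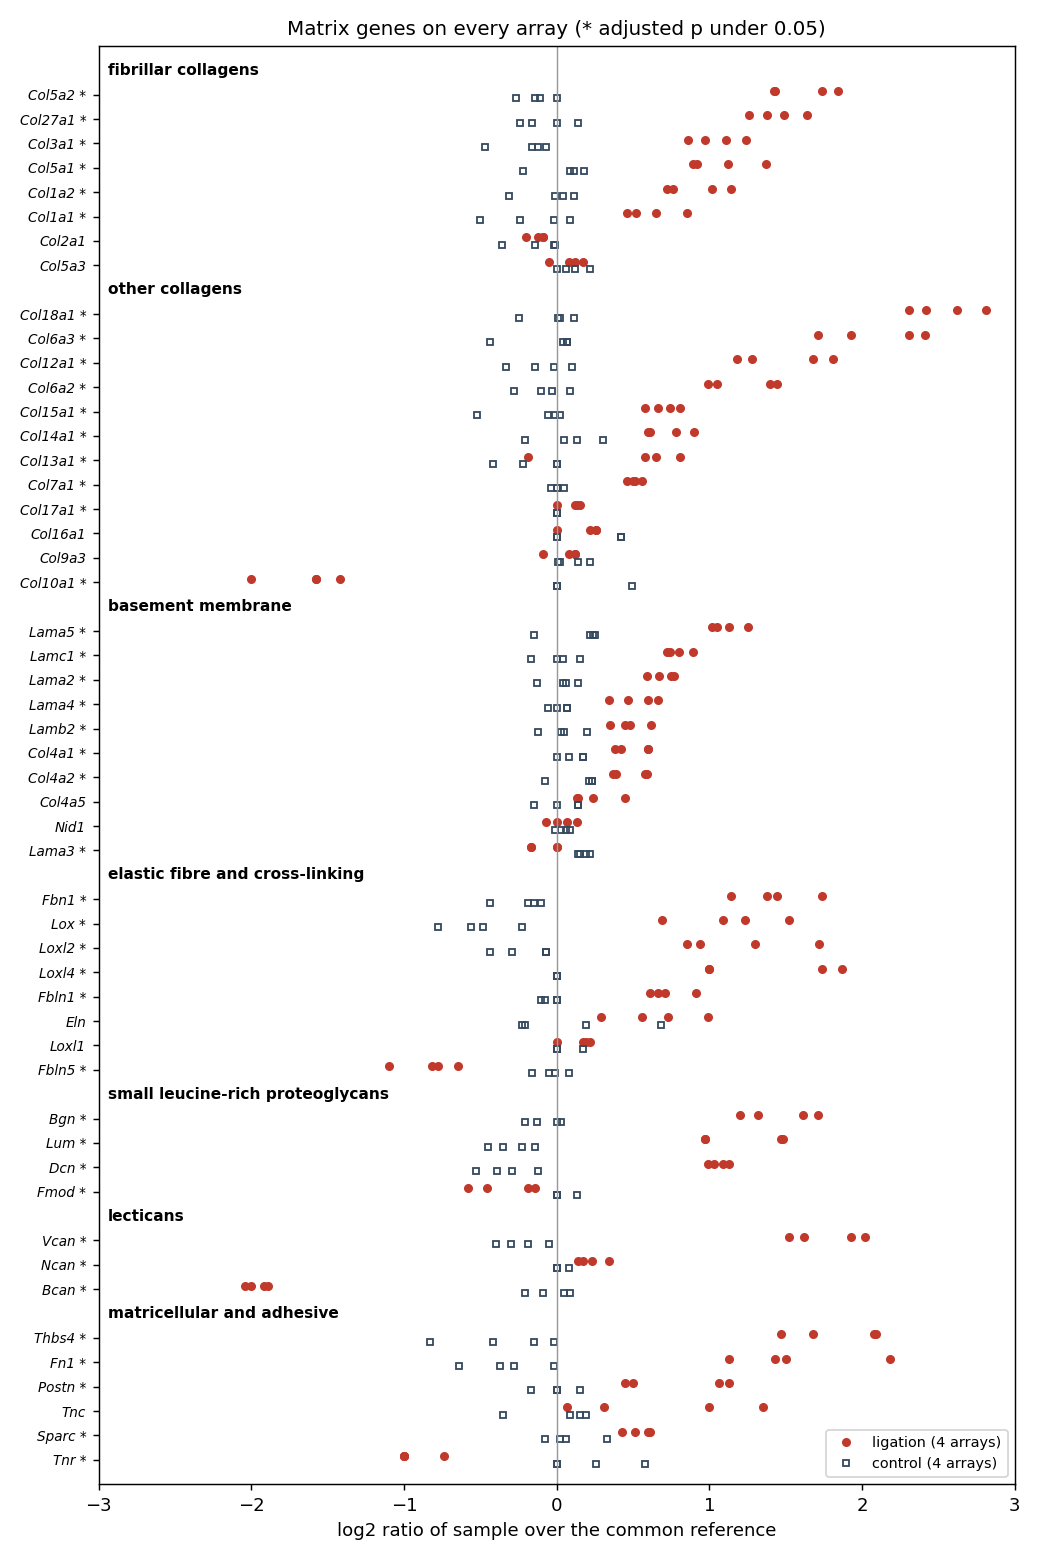
Log2 ratio of sample over reference (x axis) of 51 of the 52 matrix genes on the 4 ligation arrays (filled circles) and 4 control arrays (open squares), in groups of related function. An asterisk marks the 42 genes with an adjusted p under 0.05, of which 36 are higher and 6 lower in ligation.

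Bright spots limited some values. On the sample channel of all 4 ligation arrays at least 20 spots shared nearly 1 intensity (within 0.05), between 17.77 and 21.23, and 7 matrix genes had a reporter at or above that intensity on at least 1 ligation array. These were Col15a1, Col18a1 and Fn1 on 4 arrays, Col3a1 on 3, and Col1a2, Dcn and Thbs4 on 2. Their fold changes may be understated or overstated. For Fn1 the reference intensity was also lower on the ligation arrays (4.00 to 11.03) than on the control arrays (12.08 to 13.52). For Thbs4 it was not (4.93 to 5.61 in ligation, 4.79 to 5.17 in control). At the dim end, rounding of the printed intensities alone allowed a log2 difference of 0 for 2 genes past the test, Col17a1 and Lama3.

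Fibrillar collagens rose in 6 of 8 measured genes, with 0 lower and a median log2 difference of 0.99. This count and those of the other functional groups below stand beside 30.2% higher and 35.9% lower over all genes. Col5a2, a chain of the type V collagen that starts and regulates fibrils, had log2 ratios of 1.43, 1.74, 1.84 and 1.42 on ligation arrays 1 to 4, against 0.00, -0.27, -0.11 and -0.14 on control arrays 1 to 4. All ligation arrays were higher, with arrays 2 and 3 the highest, and the groups did not overlap. Col5a2 rose 3.34-fold (1.74 ± 0.11 on the log2 scale, SE, with 4 arrays in each group; adjusted p = 1.14e-05), and its dimmer probe had a log2 difference of 1.41. Col27a1, a fibrillar collagen known from cartilage, had 1.38, 1.49, 1.64 and 1.26 in ligation, against -0.16, -0.24, 0.00 and 0.14 in control. Its groups stood apart by over 1 log2 unit, and it rose 2.84-fold (adjusted p = 1.88e-05). The dimmer of its probes, at a mean intensity of 0.109, differed by 0.26 (adjusted p = 0.00609).

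Col3a1, the single chain of type III collagen, had log2 ratios of 0.86, 1.11, 1.24 and 0.97 in ligation and -0.07, -0.47, -0.16 and -0.12 in control. It rose 2.37-fold (1.25 ± 0.11, adjusted p = 6.03e-05), with control array 2 the lowest of the 8. The chains of type I collagen, the main collagen of connective tissue, rose less than 2-fold. Col1a1 had 0.46, 0.65, 0.85 and 0.52 in ligation, against -0.02, -0.50, -0.24 and 0.09 in control, and rose 1.73-fold (0.79 ± 0.14, adjusted p = 0.00226). Col1a2 had 0.76, 1.02, 1.14 and 0.72 in ligation, against 0.04, -0.31, -0.01 and 0.11 in control, and rose 1.93-fold (0.95 ± 0.13, adjusted p = 4.44e-04). In both chains ligation array 3 was the highest and control array 2 the lowest. Col5a1, the other measured type V chain that rose, did so 2.05-fold, and Col5a3 did not pass (log2 -0.02, adjusted p = 0.818). Col5a3 had 0.12, 0.08, 0.17 and -0.05 in ligation, against 0.12, 0.00, 0.22 and 0.06 in control, so its groups overlapped throughout. After quantile normalization Col1a1 kept its size with a wider error and did not pass (0.78 ± 0.25, adjusted p = 0.059), whereas Col5a1 was smaller and did not pass (0.56 ± 0.21, adjusted p = 0.0852).

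For 4 of these genes the value is a mean over 3 reporters that share 1 sequence identifier, and for Col2a1, the collagen of cartilage, the reporters went in opposite directions. Over the table, 462 identifiers had several reporters, and the brightest and dimmest of an identifier differed in intensity by a median of 4.00-fold. The brightest Col2a1 reporter had 0.48, 0.79, 0.85 and 0.46 in ligation, against 0.09, -0.35, -0.09 and 0.00 in control, a difference of 0.74 ± 0.13 (SE, adjusted p = 0.00191). The next had -1.14, -1.30, -1.40 and -0.93 in ligation, against -0.05, -0.37, -0.21 and -0.02 in control, a difference of -1.03 ± 0.12 (adjusted p = 2.34e-04). The dimmest differed by 0.33 ± 0.08 (adjusted p = 0.0102). All 3 passed when fitted on their own, whereas their mean did not (log2 0.01, adjusted p = 0.931), so no direction is given for Col2a1. The 3 reporters of each of Col1a1, Col1a2 and Col3a1 were all higher in ligation, by 0.63 to 0.91, 0.86 to 1.02 and 0.96 to 1.39. The brightest reporters of Col1a2 and Col3a1 were blank on ligation array 4, where the value is the mean of the other reporters.

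**Figure D3:**
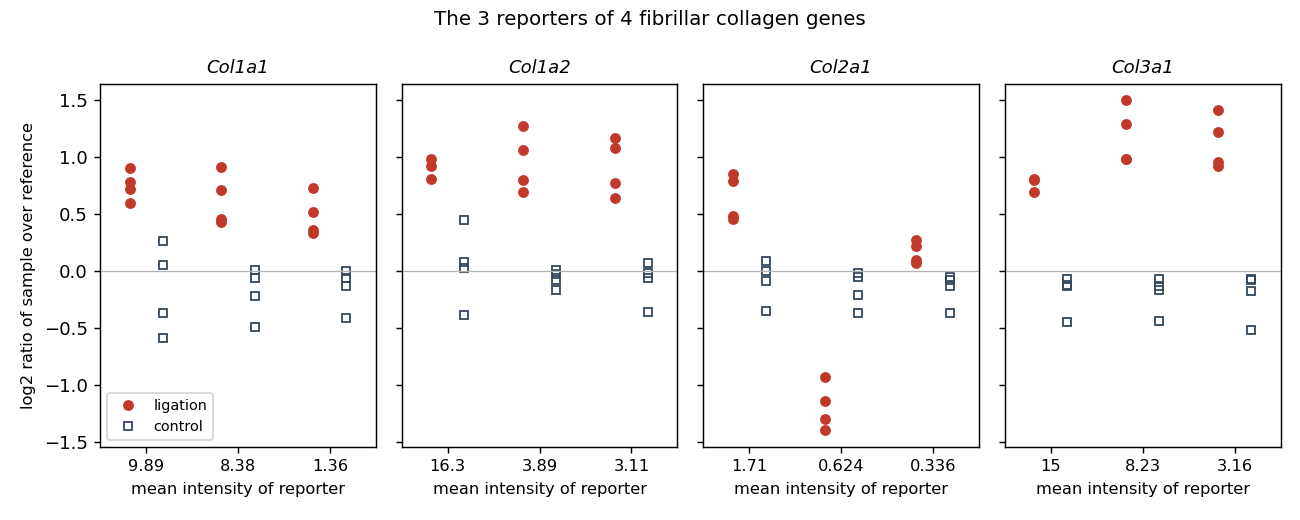
Log2 ratio of sample over reference (y axis) for the 3 reporters of Col1a1, Col1a2, Col2a1 and Col3a1, ordered by mean intensity (x axis), with ligation arrays as filled circles and control arrays as open squares. The Col2a1 reporter of mean intensity 0.624 lies at -1.40 to -0.93 in ligation, while the other reporters of that gene are above 0 in ligation.

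Collagens outside the fibrillar and type IV classes rose in 9 of 12 genes and fell in 1. Col18a1, a collagen of basement membranes whose end fragment is endostatin, had log2 ratios of 2.62, 2.31, 2.81 and 2.42 in ligation, against 0.01, -0.25, 0.02 and 0.11 in control. It rose 5.92-fold (2.57 ± 0.12, adjusted p = 3.18e-06). Its dimmer probes, which lay below the range of piled-up spots, gave log2 differences of 2.74 and 1.69. Col15a1, the related type XV collagen, had 0.66, 0.58, 0.81 and 0.74 in ligation, against 0.02, -0.52, -0.01 and -0.06 in control, and rose 1.79-fold.

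Type VI collagen forms beaded filaments, and both of its measured chains rose. Col6a3 had 1.71, 2.31, 2.41 and 1.93 in ligation, against 0.07, -0.44, 0.07 and 0.04 in control (4.45-fold, 2.15 ± 0.19, adjusted p = 5e-05), and Col6a2 rose 2.47-fold. Ligation arrays 2 and 3 were the highest for Col6a3, and the lowest ligation array was 1.64 above the highest control array. Col12a1, which decorates the surface of collagen fibrils, had 1.28, 1.68, 1.81 and 1.18 in ligation, against -0.02, -0.33, 0.10 and -0.14 in control, and rose 3.00-fold (adjusted p = 1.16e-04). Col14a1, of the same class, rose 1.57-fold on its brighter probe, and its dimmer probe did not pass (0.14, adjusted p = 0.203). After quantile normalization its brighter probe did not pass either (adjusted p = 0.433).

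The remaining collagens of this set differed by less than 2-fold, apart from Col10a1, which fell. Col7a1, of the anchoring fibrils of skin, rose 1.42-fold with ligation values of 0.46 to 0.56 and control values of -0.04 to 0.05, a narrow spread in both groups. Col17a1 (0.10, adjusted p = 0.0429) and Col13a1 (0.62, adjusted p = 0.0473), which are transmembrane collagens, passed narrowly and their groups overlapped. Col13a1 lost its call in 7 of the 8 fits that left out 1 array, and Col17a1 likewise. Col9a3 (-0.04) and Col16a1 (-0.02), both collagens that associate with fibrils, did not pass.

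Basement membrane genes, here type IV collagen, laminins and nidogen, rose in 7 of 11 measured genes and fell in 1. None of these 11 reached a 2-fold difference, beside 6.53% of all genes with at least a 2-fold rise and 4.69% with such a fall. Col18a1 (5.92-fold), also of basement membranes, was counted above with the collagens outside the fibrillar and type IV classes. Lama5, a laminin alpha chain of vessels and epithelia, had 1.13, 1.05, 1.02 and 1.25 in ligation, against 0.22, -0.15, 0.24 and 0.25 in control, and rose 1.96-fold (0.97 ± 0.10, adjusted p = 1.25e-04). Unlike Col6a3, Lama5 was highest on ligation array 4. Lamc1, the gamma chain shared by most laminins, had 0.72, 0.80, 0.89 and 0.74 in ligation, against 0.15, -0.17, 0.04 and 0.00 in control, and rose 1.72-fold (adjusted p = 6.31e-05). Lama2, the alpha chain of the Schwann cell basement membrane, had 0.67, 0.75, 0.77 and 0.59 in ligation, against 0.14, -0.13, 0.06 and 0.04 in control, and rose 1.59-fold (adjusted p = 9.38e-05). For these chains the groups did not overlap.

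Lama4 (1.41-fold) and Lamb2 (1.35-fold) also rose. The type IV collagen chains of all basement membranes, Col4a1 and Col4a2, rose 1.32-fold and 1.26-fold, but the dimmer probes of Col4a1 did not pass (adjusted p = 0.211 and 0.263). Col4a5 (0.21, adjusted p = 0.101) and Nid1, the nidogen that links laminin to type IV collagen (-0.01, adjusted p = 0.910), did not pass. Nid1 had 0.00, 0.13, 0.07 and -0.07 in ligation, against 0.03, -0.01, 0.09 and 0.06 in control. Lama3, an alpha chain of epithelial laminin, fell 1.20-fold (log2 difference -0.26, adjusted p = 0.00315), at a mean sample intensity of 0.08 in ligation and 0.09 in control. After quantile normalization none of the 7 rises passed (adjusted p 0.062 to 0.853), and Col4a2 was -0.08 there.

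Genes of elastic fibres and of collagen cross-linking rose in 5 of 8 and fell in 1, with a median log2 difference of 1.08. Fbn1, whose product fibrillin forms microfibrils, had 1.14, 1.44, 1.74 and 1.38 in ligation, against -0.19, -0.44, -0.10 and -0.15 in control. It rose 3.13-fold (1.65 ± 0.13, adjusted p = 3.39e-05), and its dimmer probe differed by 1.51. Lox, the lysyl oxidase that starts the cross-links of collagen and elastin, had 0.69, 1.23, 1.52 and 1.09 in ligation, against -0.48, -0.78, -0.23 and -0.56 in control. Lox also rose 3.13-fold (1.64 ± 0.19, adjusted p = 1.99e-04), and every control array lay below 0.

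Loxl2, a relative of Lox, had 0.85, 1.30, 1.72 and 0.94 in ligation, against -0.07, -0.44, -0.29 and -0.07 in control, and rose 2.68-fold (adjusted p = 5.99e-04). Its dimmer probe had nearly the same difference (1.41). Loxl4 rose 2.64-fold at a mean sample intensity of 0.0875 in ligation and 0.025 in control, and rounding alone allowed 0.49 to 2.34. After quantile normalization its difference was 0.88 (adjusted p = 0.00209). Fbln1, a fibulin of basement membranes and elastic fibres, rose 1.70-fold, while elastin itself, Eln, did not pass (0.53 ± 0.24, adjusted p = 0.0939). Eln had 0.29, 0.56, 0.99 and 0.73 in ligation, against 0.19, -0.21, 0.68 and -0.23 in control, so its groups overlapped. Fbln5, a fibulin needed for elastic fibre assembly, fell 1.75-fold, and its log2 difference was -0.42 after quantile normalization (adjusted p = 0.0462).

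Among the small leucine-rich proteoglycans, which bind collagen and shape its fibrils, 3 of 4 rose and 1 fell. Dcn (decorin, NM_024129) had 1.03, 1.13, 1.09 and 0.99 in ligation, against -0.29, -0.53, -0.39 and -0.12 in control. The 4 ligation arrays were within 0.14 of each other, and Dcn rose 2.63-fold (1.39 ± 0.09, adjusted p = 8.91e-06). Lum (lumican) had 0.97, 1.47, 1.48 and 0.97 in ligation, against -0.23, -0.45, -0.35 and -0.14 in control, and rose 2.87-fold (adjusted p = 9.07e-05). Bgn (biglycan) had 1.20, 1.61, 1.71 and 1.32 in ligation, against -0.13, -0.21, 0.03 and 0.00 in control, and rose 2.90-fold (adjusted p = 2.96e-05). Fmod, fibromodulin, fell 1.30-fold at a mean sample intensity of 0.0825 in ligation and 0.085 in control (-0.38, adjusted p = 0.0162), a call lost after quantile normalization (adjusted p = 0.0904).

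The lecticans, chondroitin sulphate proteoglycans that bind hyaluronan, went in both directions. Vcan (versican), the lectican of loose connective tissue, had 1.52, 1.93, 2.02 and 1.62 in ligation, against -0.05, -0.40, -0.30 and -0.19 in control. It rose 4.02-fold (2.01 ± 0.13, adjusted p = 1.15e-05). Another of its probes differed by 2.33 and the dimmest did not pass (0.50, adjusted p = 0.0846). Bcan (brevican, NM_012916), a lectican of the nervous system, had -2.00, -1.92, -2.04 and -1.89 in ligation, against -0.21, 0.09, 0.05 and -0.09 in control. All 4 ligation arrays lay within 0.15 of each other, and Bcan fell 3.79-fold (-1.92 ± 0.07, adjusted p = 1.13e-06). Rounding alone allowed -2.09 to -1.76. Ncan, neurocan, rose 1.15-fold, and its call was lost after quantile normalization (adjusted p = 0.283).

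Of 6 adhesive and matricellular glycoproteins, which bridge matrix and cells, 4 rose and 1 fell. Thbs4, a thrombospondin, had 1.68, 2.09, 2.08 and 1.47 in ligation, against -0.15, -0.83, -0.42 and -0.02 in control. It rose 4.55-fold (2.19 ± 0.22, adjusted p = 9.32e-05), and control array 2 was the lowest of its group. Fn1 (fibronectin, NM_019143) had 1.43, 2.18, 1.50 and 1.13 in ligation, against -0.28, -0.64, -0.37 and -0.02 in control, and rose 3.70-fold (1.89 ± 0.23, adjusted p = 3.04e-04). Its sample intensity was at or above the piled-up intensity of the array on all ligation arrays.

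Postn, periostin, had 0.50, 1.06, 1.13 and 0.45 in ligation, against -0.17, 0.15, 0.00 and 0.00 in control, and rose 1.73-fold (adjusted p = 0.00616). Sparc, a collagen-binding glycoprotein, rose 1.37-fold with ligation values of 0.43 to 0.61 and control values of -0.08 to 0.33. After quantile normalization neither passed (adjusted p = 0.102 for Postn and 0.613 for Sparc). Tnc, tenascin C, did not pass (0.66 ± 0.30, adjusted p = 0.0957), with 0.31, 1.00, 1.35 and 0.07 in ligation, against 0.09, 0.19, 0.15 and -0.35 in control. Its ligation arrays 1, 2 and 3 lay above all control arrays and array 4 did not. Tnc passed without ligation array 4 (0.86, adjusted p = 0.0359) and with a replicate block (0.66, adjusted p = 0.0423), and did not pass in the other 7 fits that left out 1 array (adjusted p 0.0831 to 0.212).

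**Figure D4:**
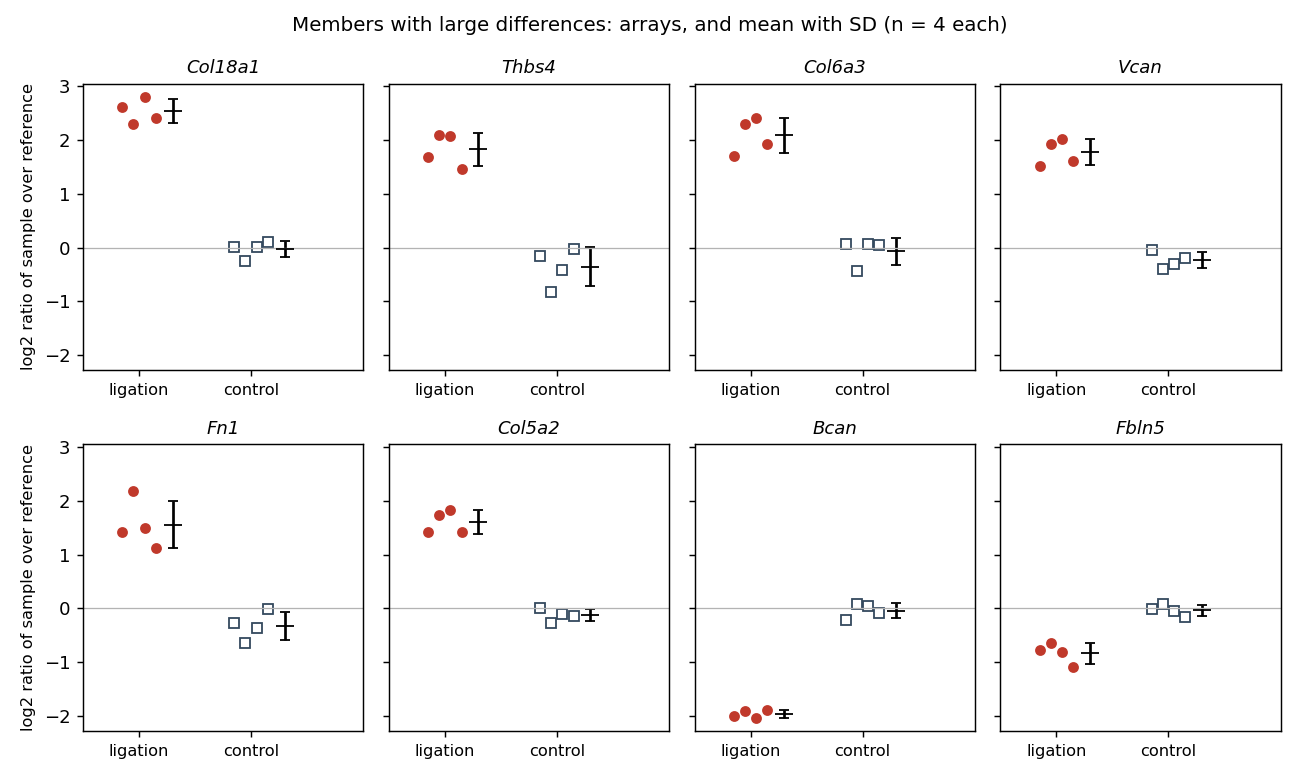
Log2 ratio of sample over reference (y axis) of 8 matrix genes on the ligation arrays (filled circles, replicates 1 to 4 from left) and control arrays (open squares), with the mean and SD of each group in black (n = 4). Col18a1, Thbs4, Col6a3, Vcan, Fn1 and Col5a2 are higher in ligation on every array, and Bcan and Fbln5 are lower on every array.

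The 6 genes that fell were Bcan, Col10a1, Tnr, Fbln5, Fmod and Lama3, beside 35.9% of all genes that fell. In each of them the 4 ligation arrays lay below the 4 control arrays. How many of all genes were separated in that direction was not counted. Fbln5 was the bright one among them, with a mean sample intensity of 2.47 in ligation and 3.70 in control. It had -0.78, -0.65, -0.82 and -1.10 in ligation, against -0.01, 0.08, -0.05 and -0.16 in control (-0.80 ± 0.10, adjusted p = 2.79e-04). The other 5 had control means of at most 0.3. Col10a1, a collagen of growth cartilage, had -1.58, -2.00, -1.42 and -1.58 in ligation, against 0.00, 0.00, 0.49 and 0.00 in control, where rounding alone allowed a difference of -2.40 to -1.19. Tnr, tenascin R of the nervous system, had -1.00, -1.00, -1.00 and -0.74 in ligation, against 0.00, 0.00, 0.26 and 0.58 in control, where rounding allowed -1.82 to -0.51. For Fmod rounding allowed -0.74 to -0.01.

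Within each group the arrays kept an order across many of the genes. Of the 36 genes that rose, 29 were highest on ligation array 3 among the ligation arrays, and 15 and 17 were lowest on arrays 1 and 4. Among the control arrays 30 of the 36 were lowest on array 2. The order over all genes that rose was not counted, so whether it is particular to matrix genes was not tested. The median over all 52 genes was 0.55, 0.68, 0.83 and 0.56 on ligation arrays 1 to 4, against 0.00, -0.14, 0.01 and 0.00 on control arrays 1 to 4. For the fibrillar collagens the medians were 0.81, 1.06, 1.19 and 0.81 in ligation, against -0.01, -0.29, -0.06 and 0.07 in control. Without control array 2, 34 genes rose and 6 fell, beside 24.8% of all probes higher and 29.8% lower. Without ligation arrays 2 and 3, 32 rose and 6 fell, and the median log2 difference was 0.51. Over all probes 23% were then higher and 27.8% lower.

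Other genes of matrix synthesis were read beside these genes. Of 16 measured genes of collagen processing, 12 rose and 1 fell, with a median log2 difference of 0.64. Over all genes 30.2% were higher and 35.9% lower. Adamts2, which removes the front propeptide of procollagen, had 1.23, 1.72, 1.62 and 1.34 in ligation, against -0.35, -0.56, -0.43 and -0.27 in control, and rose 3.68-fold. Bmp1, which removes the end propeptide, rose 2.79-fold, its enhancer Pcolce 2.68-fold and the collagen chaperone gene Serpinh1 1.60-fold. The prolyl hydroxylase subunit gene P4ha2 rose 1.87-fold, whereas P4ha1 did not pass (0.10, adjusted p = 0.107). Sec23a, of the coat that carries procollagen out of the endoplasmic reticulum, fell 1.43-fold.

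Of 33 other matrix genes 17 rose and 3 fell, beside 30.2% higher and 35.9% lower over all genes. Ltbp1, which holds latent TGF-beta in the matrix, rose 4.27-fold, and Fbn2, fibrillin 2, rose 4.03-fold. Hapln1, which ties lecticans to hyaluronan, fell 6.31-fold at a mean sample intensity of 0.02 in ligation and 0.103 in control, close to the rounding step. Of 22 matrix receptors 16 rose and 2 fell, beside the same shares over all genes. Sdc1, a heparan sulphate proteoglycan of the cell surface, had 3.30, 3.11, 3.01 and 3.44 in ligation, against -0.53, -0.43, -0.19 and -0.72 in control, and rose 12.8-fold (adjusted p = 1.06e-06). Itgb1, the beta chain of the main collagen and laminin receptors, rose 1.88-fold, and Bcam, a laminin receptor, fell 1.63-fold.

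Markers of cell types were read on the same arrays, beside shares over all genes of 30.2% higher and 35.9% lower. Macrophage markers rose in 8 of 10, with medians of 2.08 to 2.36 on the ligation arrays and -0.32 to -0.12 on the control arrays. Sensory neuron markers fell in 7 of 7, with medians of -1.65 to -1.59 on the ligation arrays and -0.05 to 0.04 on the control arrays. The macrophage list differed in the direction of the matrix median and the sensory neuron list in the opposite direction. The part of these lists in the results was not tested. Of 11 measured fibroblast markers 4 rose, 2 fell and 5 did not pass, with a median log2 difference of 0.18. Pdgfra, a receptor of fibroblasts, rose 2.96-fold, while Pdgfrb did not pass (0.18, adjusted p = 0.388). The fibroblast medians were 0.00 to 0.32 on the ligation arrays and -0.04 to 0.08 on the control arrays, and ligation arrays 2 and 3 were the highest. Endothelial markers rose in 4 of 8 (median difference 0.37), and pericyte and smooth muscle markers rose in 4 of 7 and fell in 1 (0.27). Schwann cell markers rose in 3 of 8 and fell in 3 (-0.19), and satellite glia markers rose in 2 of 5 and fell in 1 (0.08). Skeletal muscle markers rose in 1 of 8 and fell in 1 (-0.31), and of 4 cartilage and bone markers 1 rose (0.13). The skeletal muscle medians lay far below the common reference in both groups, at -3.21 to -2.92 on the ligation arrays and -3.32 to -2.59 on the control arrays.

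**Figure D5:**
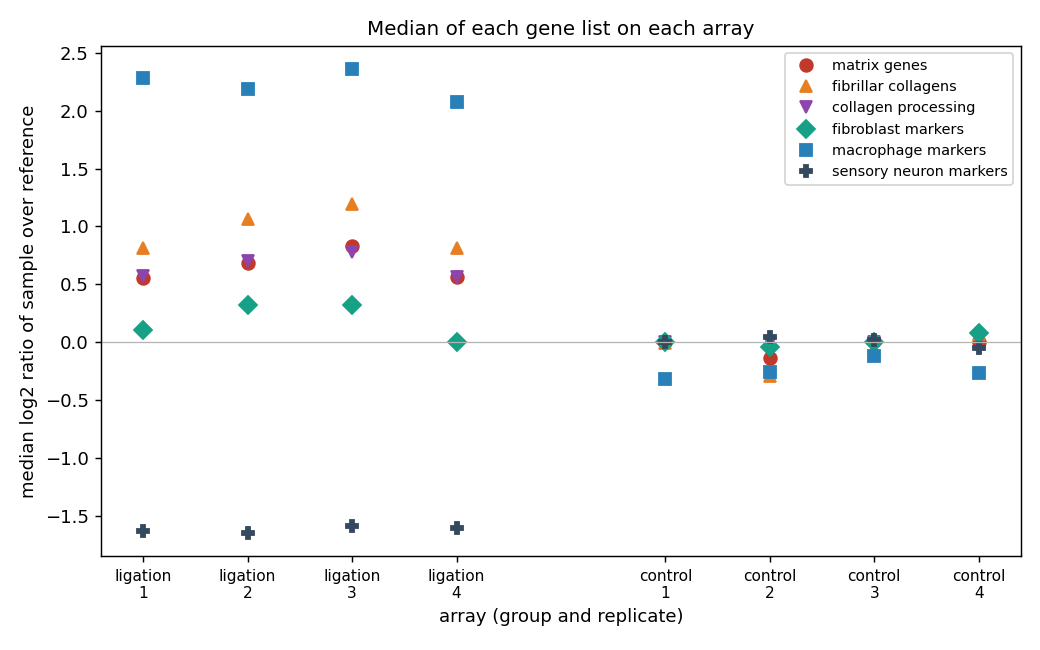
Median log2 ratio of sample over reference (y axis) of 6 gene lists on each of the 8 arrays (x axis). The matrix genes lie at 0.55 to 0.83 on the ligation arrays and -0.14 to 0.01 on the control arrays, with macrophage markers above them and sensory neuron markers below them on every ligation array.

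The authors' deposited table also gives a p-value for the ratio of sample to reference within each array. In the authors' deposited table that p-value was under 0.05 on 4 of 4 ligation arrays for 44 of the 75 reporters of the matrix genes, and on 4 of 4 control arrays for 0 of 75. Over all reporters of the authors' deposited table the shares were 21.8% for the ligation arrays and 0.306% for the control arrays. The reference was a control pool, so control arrays compare control with control. Pool and control samples were not alike for every gene, with skeletal muscle medians of -3.32 to -2.59 on the control arrays. A low count on the control arrays is likely under this design and is not separate support for the rises.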

How the data were processed

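The labels' protocols describe linear amplification of 100 ng RNA over 2 rounds, with each sample labelled in Cy5, the control pool in Cy3 and dyes never swapped. Per the submitters' processing notes, Agilent Feature Extraction 8.5.1.1 read the scans. How background and dyes were corrected is not given in the sources used here. Each row of the deposited table holds an intensity per channel and the authors' p-value per array, per the file headers. A deposited table of log10 values lay within 0.005 of the log10 of sample over reference for 100% of spots and served only for this check. Of the columns of values, 0 were left unmapped.

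Reporters that share a sequence identifier were averaged (23557 reporters, 22491 identifiers), and 22379 identifiers measured on 2 or more arrays per group were tested with limma 3.58.1 in R 4.3.3 (lmFit, eBayes, two-sided, Benjamini-Hochberg over all). A gene took its identifier with the highest mean intensity. The 52 genes keep the symbols of the file, and other symbols were updated through a RefSeq table (GRCr8). The code of the fit was checked on simulated data with independent noise of the control spread. That simulation held no rounding, piled-up spots or shifts shared by a whole array, so it does not cover those limits. Figures used Python 3.11.15 and matplotlib 3.10.9. The members and lists were chosen with earlier results of these data known. All 52 genes enter the counts, and 1 of them is otherwise not reported here. The other members could be named, with values on each array for those that moved most in each functional group, the falls, and reporters that disagreed. Alternatives were quantile and loess normalization, trend and robust, averaged probes, bright probes only, a replicate block, arrays left out and single reporters.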

Additional observations from a re-analysis of the deposited data

Results flagged for a closer look

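In 11 of 104 sets of 4 arrays (52 genes in 2 groups) a single array lay far from the other arrays of its group, by Dixon's test. Of these, 10 are given here. For independent values without ties, chance alone gives this in about 1 of 20 sets. The sets share arrays and some hold tied values, so that rate is no more than a rough guide. Control array 2 was the low array for Col15a1 (-0.52, others -0.06 to 0.02), Col6a3 (-0.44, others 0.04 to 0.07), Lama5 (-0.15, others 0.22 to 0.25) and Col4a2 (-0.08, others 0.21 to 0.23). In control array 3 Col10a1 was at 0.49, Loxl1 at 0.17 and Fmod at 0.13, each against 0.00 on the other control arrays. In control array 4 Ncan was at 0.08, against 0.00 on the other control arrays. In ligation array 4 Tnr was at -0.74, against -1.00 on the other ligation arrays, and Col16a1 at 0.00, against 0.22 to 0.26. The 6 values given outside control array 2 belong to dim probes, with mean sample intensities of at most 0.208 in either group, printed with 2 decimals. For Col10a1, Loxl1, Fmod, Ncan and Tnr the other arrays of the group had equal ratios. With such ties any different value is flagged, however small.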

How the results depend on the processing

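Of the 42 matrix genes past the test, 26 kept direction and call under every alternative that gave a value. Quantile normalization between arrays had the widest effect: 6363 probes passed in place of 13105, 21 matrix genes were higher in place of 36, the median log2 difference was 0.36, 15 genes lost their call, and Col4a2 turned to -0.08 (adjusted p = 0.809). That setting gives the arrays 1 spread of ratios. Whether control arrays, read against a control pool, should share the spread of the ligation arrays was not tested. Ratios over all reporters correlated at 0.277 to 0.456 between control arrays and 0.884 to 0.947 between ligation arrays. The cause of each lost call was not tested either. With only probes above the median intensity, 8568 of 11166 probes passed (76.7%, against 58.6% in the main fit). In that setting 37 matrix genes were left, 2 of them were lower, beside 42.9% of the probes, and the median over those left was 0.95. Without ligation replicates 2 and 3 the median was 0.51. With 1 array left out at a time, 34 to 37 matrix genes were higher and 6 were lower in each fit. In these fits 17 to 19 were at least 2-fold higher, the median was 0.62 to 0.79 and 12019 to 12730 probes passed. Over all probes 24.4% to 25.9% were higher and 29.3% to 31% lower. With each reporter on its own, chosen after seeing the data, 37 were higher and Col2a1 passed (0.74).

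Whether the replicate numbers pair the samples was not settled. Deviations of same-numbered arrays correlated at 0.093, 0.062, 0.124 and 0.153, and each ligation array correlated best with the control array of its number. With the replicate block 34 matrix genes were higher and 6 lower, and 12577 probes passed (25.7% of all probes higher and 30.5% lower). Dim probes are limited by rounding.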
